A study of Rattus norvegicus with 48 samples.

Results

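miR-221 is a small regulatory RNA that was measured by 1 of the 143 miRNA probes in a table of rat liver values, and its values in all 48 liver samples of 16 groups are described here. It was chosen by name, as the probe rno-miR-221, and not by how its level moved. The samples came from male Sprague-Dawley rats, aged 8 weeks or up to 6 weeks more, that were fed a Lieber-DeCarli liquid diet for 6 to 8 weeks. In this diet 36% of the calories came from ethanol (EtOH-fed) or, in the pair-fed controls, from the carbohydrate maltose-dextran (CHO-fed). Liver regeneration was set off by partial hepatectomy (PHx), the surgical removal of 70% of the liver, after which the remnant grows back. Untreated rats of both diets were sampled at 0, 6, 24 and 72 h. Rats injected with saline, or with AM21 at 7.5 mg/kg, were sampled at 0 and 24 h. AM21 is a locked nucleic acid oligonucleotide antisense to miR-21, injected into the abdomen 72 h before surgery and again right after it. Each group held 3 samples, each taken here as 1 animal, since the sources do not say whether liver removed at 0 h came from rats that were also sampled later. All 0 and 24 h samples carry a leading number of 1, 2 or 3 in their labels, and all 6 and 72 h samples carry the number 4. Time at 6 and 72 h and this number cannot be told apart in a comparison with 0 h.

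A miRNA is cut from a hairpin-shaped precursor and, loaded into an Argonaute protein, pairs with messenger RNAs mainly through its seed, bases 2 to 8 from its 5′ end, which lowers their translation and stability. miR-221 and its neighbour miR-222 are known to repress the cyclin-dependent kinase inhibitors Cdkn1b and Cdkn1c, which hold cells out of the cell cycle. miR-221 is often raised in liver tumours and has been tied to hepatocyte proliferation, and it is also present in stellate cells, the collagen-producing cells of the liver.

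The mature strands are shown because the seed fixes which messenger RNAs the miRNA can pair with and which other miRNAs share them. Capitals mark the seed, and the sequences are from RefSeq on the rat assembly GRCr8. miR-221-3p lies at chrX:6023246-6023268 and miR-222-3p at chrX:6022682-6022702, both on the plus strand.
miR-221-3p: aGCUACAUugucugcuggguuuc
miR-222-3p: aGCUACAUcuggcuacugggu
miR-221-5p: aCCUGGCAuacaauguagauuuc
Of 693 mature rat miRNAs in the RefSeq table, 2 have the seed GCUACAU, miR-221-3p and miR-222-3p. Counted base by base from the 5′ end, 11 of the first 21 bases of these strands are identical, the seed among them. The count allows no gap, so it is no measure of likeness outside the seed, where both strands hold the stretch cugggu at an offset. The probe name carries no strand suffix and was read here as the 3p strand, which older naming left without one. miR-222 was not analysed here, and no other probe in the table is named for a miRNA with this seed.

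The precursor shows where the mature strand is cut from. The Mir221 hairpin spans chrX:6023182-6023290, and capitals mark miR-221-3p at bases 65 to 87 of its 109 bases.
Mir221 hairpin: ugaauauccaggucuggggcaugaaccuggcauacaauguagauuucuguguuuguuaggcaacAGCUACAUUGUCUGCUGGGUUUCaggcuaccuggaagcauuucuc
The Mir222 hairpin ends 458 bases upstream of it on the same strand.

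Values are in log2 CPM, the log2 of a count scaled to a fixed total per sample, and whole counts were recovered from them. Recovered totals ran from 58168 to 267582 counts per sample, with a median of 160078. miR-122, the main miRNA of hepatocytes, took 42.1% to 68.8% of the counts. No marker listed here for hepatocytes, mesenchymal cells, endothelium, red blood cells or leukocytes was at 0 in any sample. The same held for every probe in the table, with a lowest count of 5, so this does not show that each cell type was detected. miR-21, the target of AM21, was between 6.59 and 7.76 log2 CPM in the 12 AM21 samples. It was between 12.97 and 15.76 in 33 of the untreated and saline samples, but the EtOH-fed saline samples at 0 h were at 9.65, 11.12 and 14.10. The 2 low samples of that group stand apart from the other controls, below the lowest of them and above the highest AM21 sample. The miR-221 fits that use the group, and the list, marker and likeness results at 24 h, are also given without them. Whole liver holds many cell types, so that fewer cells of a type and less RNA per cell cannot be told apart.

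miR-221 was a low-count miRNA in these livers. Its count was 17 to 93 per sample, with a median of 49.5, which ranked 103 of 143 by median count. Counting error alone is 24.3% of the value at 17 counts and 10.4% at 93 counts. There were 24 samples under 50 counts and 2 under 20. In the sample with 17 counts of miR-221 the lowest of the 143 probes was at 13. In the samples with 93 counts it was at 25. Background counts of the assay were not estimated here, and their share of the miR-221 counts was not tested. Within groups the samples differed with a pooled SD of 0.37 on the log2 scale, of which counting error gave 0.22, or 33.8% of the variance. The pooled SD of the median miRNA was 0.29, and that of miR-221 was the 26th highest. Counting error here leaves out any other technical error, and 3 groups had an SD below what counting error alone gives.

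**Figure D1:**
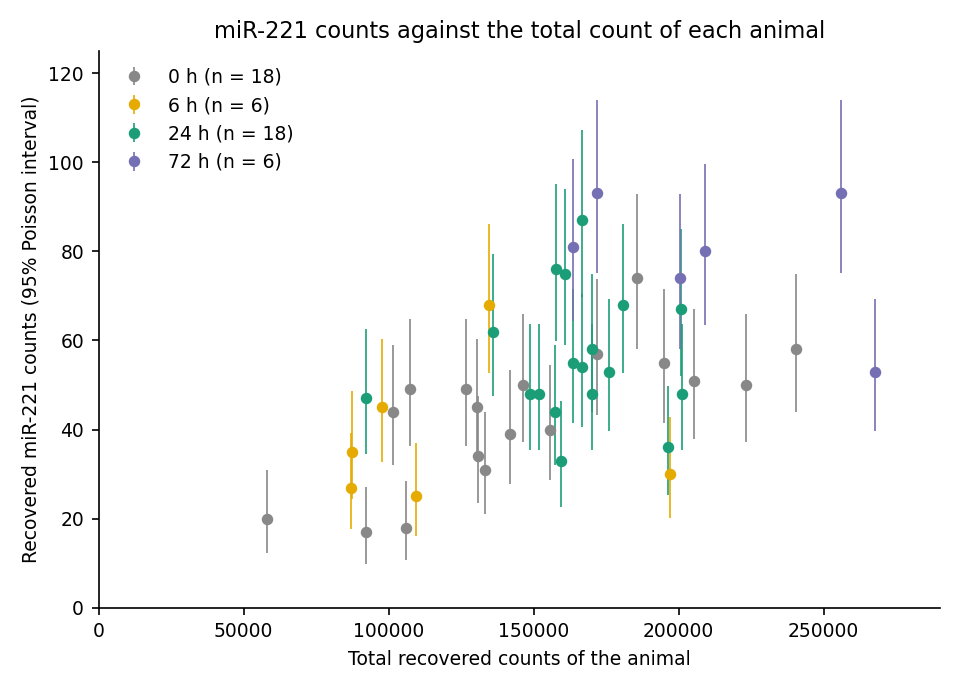
miR-221 count per sample (y axis) against the total count of that sample (x axis, counts), for the 48 samples, coloured by hours after PHx, with exact 95% Poisson intervals that cover counting error only. The miR-221 counts lie between 17 and 93, so a difference of a few counts moves a low sample visibly on the log2 scale.

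The highest group means were in CHO-fed animals after PHx without injection and the lowest were in animals given AM21 before PHx. The top of the order was 8.83 ± 0.39 log2 CPM (SD, n = 3) in untreated CHO-fed animals at 24 h. The bottom was 7.87 ± 0.41 in CHO-fed AM21 animals at 0 h. The span was 0.95 on the log2 scale, or 1.94-fold. No step in the order stood out, since the 15 neighbouring pairs of groups all overlapped, and the largest gap between neighbours was 0.20, below the pooled SD.

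**Figure D2:**
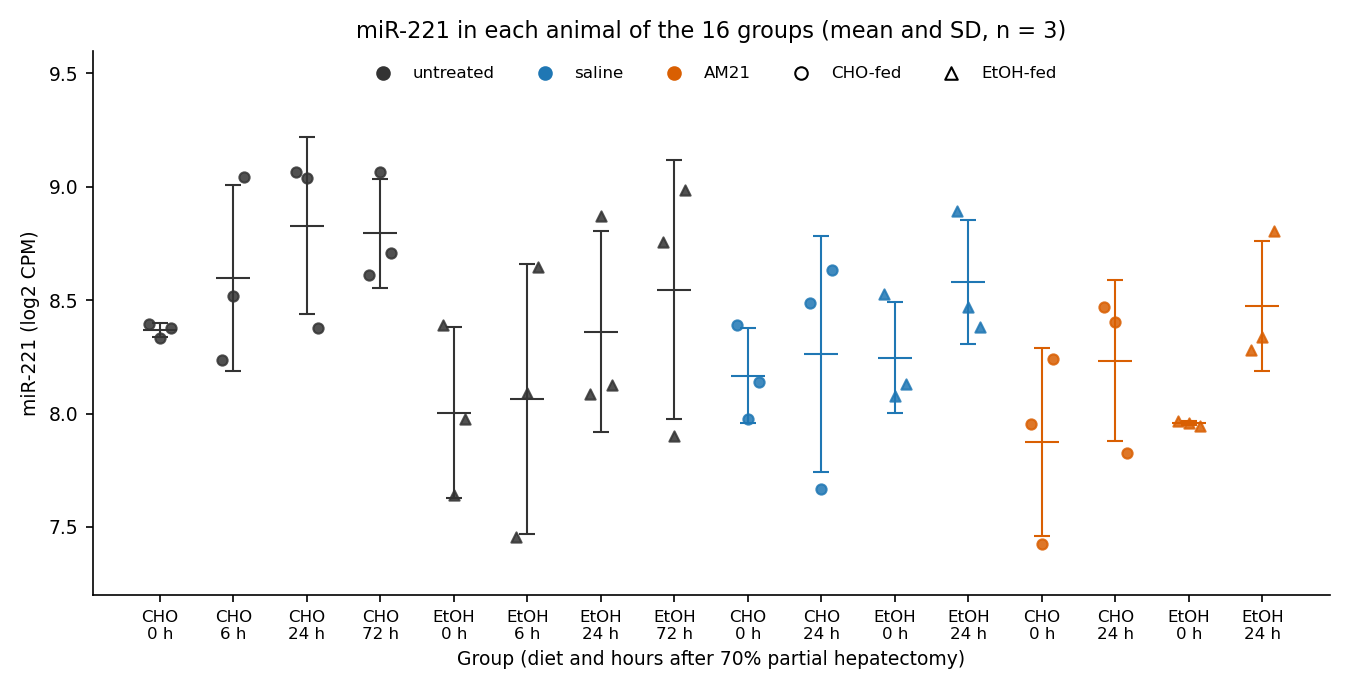
miR-221 level in log2 CPM (y axis) in the 16 groups (x axis); each point is 1 sample, coloured by treatment and shaped by diet, and the bars give the mean and SD of the 3. Group means run from 7.87 to 8.83, and every group overlaps its neighbours in the order of means.

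In untreated CHO-fed animals the level was tightly grouped before surgery and spread out after it. At 0 h the 3 samples were at 8.33, 8.38 and 8.39. At 6 h they were at 8.24, 8.52 and 9.04. At 24 h they were at 8.38, 9.04 and 9.07. In this last group 2 samples were clear of the 0 h samples and the third was level with them. At 72 h the samples were at 8.61, 8.71 and 9.07, and the 3 of them lay above the 0 h samples. The close grouping at 0 h, an SD of 0.03, is narrower than counting error allows for these counts of 20 to 49 and is no measure of the true spread.

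None of these steps passed the test in CHO-fed animals. Differences were fitted by limma over all 143 miRNAs with Benjamini-Hochberg adjustment, and a miRNA was called at an adjusted p below 0.05. At 6 h the difference from 0 h was 0.23 (SE 0.31, adjusted p = 0.658), where 2.10% of all miRNAs were called, and it was 0.0076 without the third sample at 6 h and 0.41 without the first. At 24 h it was 0.46 (SE 0.31, 95% interval -0.18 to 1.10, adjusted p = 0.350), where 1.40% were called. At 72 h it was 0.43 (adjusted p = 0.326), where 18.2% were called. From 6 to 72 h, within the samples numbered 4, it was 0.20 (adjusted p = 0.685), where 30.8% were called, and 0.014 to 0.42 with 1 sample left out. A change over any of the 3 times gave an adjusted p of 0.516 in limma's F test, which called 32.9% of miRNAs. The interval at 24 h runs from a fold of 0.882 to 2.15.

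Untreated EtOH-fed animals were spread widely at every time. The 0 h samples were at 7.64, 7.98 and 8.39, and the 6 h samples at 7.46, 8.09 and 8.64. Those at 24 h were at 8.08, 8.13 and 8.87. The 72 h samples were at 7.90, 8.75 and 8.98. All of these groups overlapped, since 1 sample at 72 h was no higher than the middle of the 0 h group, and the lowest value of this series of groups was at 6 h.

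In EtOH-fed animals the mean had moved from its 0 h level by 0.06 after 6 h, by 0.36 after 24 h and by 0.54 after 72 h (SE 0.31 each), with limma adjusted p of 0.884, 0.510 and 0.226. These comparisons called 11.2%, 1.40% and 18.2% of all miRNAs. With 1 sample left out, the 24 h difference ran from 0.10 to 0.55. From 6 to 72 h the difference was 0.48 (adjusted p = 0.254), where 37.1% were called. The F test over the 3 times gave an adjusted p of 0.356 and called 39.9%. The interval of the 72 h difference was -0.10 to 1.18. A difference between the time courses of the 2 diets was not called (interaction F test, adjusted p = 1.00), in a test that called 0 of 143 miRNAs, with 8 at an unadjusted p below 0.05.

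The 2 diets were then averaged within the untreated animals, a comparison chosen after the values were seen, as were the others said to be so below. The 6 samples at 0 h had a lowest, median and highest level of 7.64, 8.36 and 8.39. The 6 at 72 h had 7.90, 8.73 and 9.07. The groups overlapped through 1 EtOH-fed sample at 72 h. The difference was 0.48 (SE 0.22, 95% interval 0.03 to 0.94, adjusted p = 0.0834), where 35.7% of all miRNAs were called, 18.2% as higher. Without that sample, the second of the 3 EtOH-fed at 72 h, the difference was 0.65 (adjusted p = 0.0240), and the call is then made. The total counts also differed, with 58168 to 205241 in the 0 h samples and 163533 to 267582 in those of 72 h, and their part in the result was not tested beyond a fit with the log10 total as a term, which gave 0.72 (adjusted p = 0.0551). At 24 h the difference from 0 h was 0.41 (SE 0.22, adjusted p = 0.174), where 20.3% were called, 7.69% of the 143 as higher. At 6 h it was 0.15 (SE 0.22, adjusted p = 0.578), where 24.5% were called, 9.09% as higher, and from 6 to 72 h it was 0.34 (adjusted p = 0.223), where 46.9% were called.

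**Figure D3:**
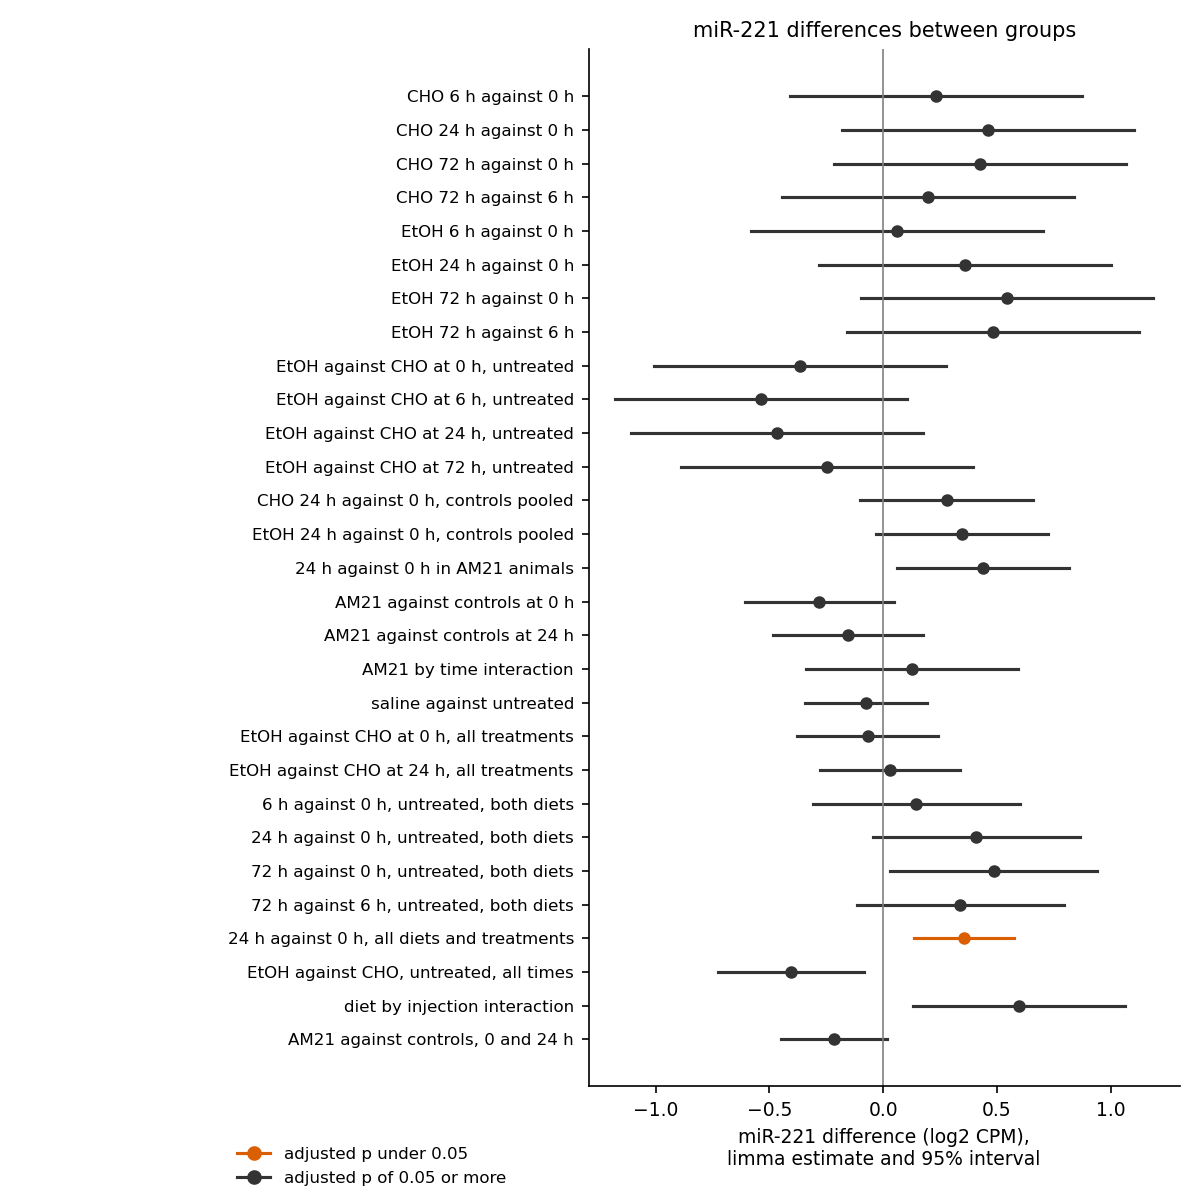
Differences in miR-221 (x axis, log2 CPM, limma estimate with 95% interval) for the comparisons named on the y axis. Intervals are not adjusted over miRNAs; 24 h against 0 h over all diets and treatments, 0.14 to 0.57, is coloured as the only one drawn with an adjusted p below 0.05.

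miR-221 rose by 24 h after PHx when every animal at 0 and 24 h was used, a comparison also chosen after the values were seen. The 18 samples at 0 h had a lowest, median and highest level of 7.43, 8.11 and 8.53 log2 CPM. The 18 samples at 24 h had 7.67, 8.44 and 9.07. The ranges overlapped widely, but 15 of the 18 samples at 24 h lay above the 0 h median and 6 lay above the highest 0 h sample. The difference, averaged over the 6 arms of diet and treatment, was 0.35 (SE 0.11, 95% interval 0.14 to 0.57), or 1.28-fold, with a limma adjusted p of 0.00716. It was called without each sample in turn and under each other setting, with estimates from 0.31 to 0.40. Without the 2 EtOH-fed saline samples low in miR-21 it was 0.37 (adjusted p = 0.0117). In this comparison 51.7% of all miRNAs were called, 29.4% as higher and 22.4% as lower, so that a call is common here. miR-221 ranked 19 of 143 by the size of the rise and 49 by its p.

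The rise at 24 h had the same sign in each of the 6 arms. The untreated arms were the only ones tested singly, and neither was called. In CHO-fed animals the mean difference from 0 h was 0.46 untreated, 0.10 with saline and 0.36 with AM21. In EtOH-fed animals it was 0.36 untreated, 0.33 with saline and 0.52 with AM21. In the CHO-fed saline arm, the smallest of these, 1 sample at 24 h was at 7.67, against 8.49 and 8.63 in the other two, and the 0 h samples were at 7.98, 8.14 and 8.39. The EtOH-fed AM21 animals did not overlap between the times, at 7.95, 7.96 and 7.97 at 0 h and at 8.28, 8.34 and 8.80 at 24 h. Their SD of 0.0093 at 0 h is far below the 0.22 that counting error alone gives at 31 to 58 counts. The close grouping is thus no measure of the true spread, and the lack of overlap rests partly on it. How many of all miRNAs separate in this way was not counted. By the leading label number, the mean rise was 0.28 in number 1, 0.56 in number 2 and 0.22 in number 3, with 5 of 6 arms higher in each.

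Taken by diet or treatment, the same step was not called. With untreated and saline animals together, 24 h exceeded 0 h by 0.28 in CHO-fed animals (SE 0.19, limma adjusted p = 0.267; exact two-sided permutation p = 0.247, 6 against 6), where 25.2% of all miRNAs were called. In EtOH-fed animals it was 0.35 (SE 0.19, limma adjusted p = 0.223, exact permutation p = 0.108), where 11.2% were called. Without the 2 saline samples low in miR-21 the limma estimate, a mean over the untreated and saline arms, was 0.40. The difference between the pooled samples was then 0.435 (exact permutation p = 0.10, 6 against 4, of which 0.00476 is the smallest possible). In the 12 animals given AM21 it was 0.44 (SE 0.19, adjusted p = 0.104; exact permutation p = 0.0303, of which 0.00216 is the smallest possible), where 14.0% were called. The permutation p in AM21 animals passes 0.05 for this single miRNA, and the adjusted value over all 143 does not.

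Some markers of cell types also differed between these times, in a comparison where 51.7% of all miRNAs were called. Of all miRNAs, 29.4% were called higher and 22.4% lower, so calls among markers are common here too. miR-223, of neutrophils and other myeloid cells, was higher by 0.41 at 24 h (adjusted p = 0.0011), and miR-150, of lymphocytes, was lower by 0.50 (adjusted p = 3.39e-05), while miR-142-3p (0.22) and miR-342-3p (0.04) were not called. The summed leukocyte list, 4 of 5 measured, spanned 11.28 to 12.23 log2 CPM in the 0 h samples and 11.29 to 11.95 in those of 24 h. Of the mesenchymal list, 4 of 5 were measured, and miR-143 (0.22) and miR-199a-5p (0.26) were higher and miR-145 (-0.27) and miR-199a-3p (-0.24) lower. Its sum spanned 13.80 to 14.61 before PHx and 13.68 to 14.31 at 24 h. Endothelial miR-126 was not called (-0.21), and of the red blood cell pair, miR-451 was lower by 0.63 (adjusted p = 0.00655) and miR-144 (-0.49) was not called. That pair summed to 9.99 to 12.54 at 0 h and 8.67 to 12.09 at 24 h. Of the hepatocyte list, 3 of 4 were measured, and miR-122 was higher by 0.30 (adjusted p = 0.00493) while miR-192 (-0.05) and miR-194 (0.10) were not called. Its sum ran over 18.34 to 19.42 in the 0 h samples and over 19.11 to 19.74 in the 24 h ones. Without the 2 samples low in miR-21 each of these calls was the same, where 48.3% of all miRNAs were called. The part of these shifts in the miR-221 rise was not tested.

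In untreated animals the EtOH-fed mean of miR-221 lay below the CHO-fed mean at each time, but no difference was called. Before PHx, EtOH-fed minus CHO-fed was -0.37, and after it the difference was -0.54 (6 h), -0.47 (24 h) and -0.25 (72 h), with an SE of 0.31 for each. The limma adjusted p were 0.527, 0.653, 0.605 and 0.807, and these comparisons called 2.10%, 0%, 2.10% and 0% of all miRNAs, with 13 and 14 at an unadjusted p below 0.05 at 6 and 72 h. Averaged over the 4 times, a comparison chosen after the values were seen, the difference was -0.40 (SE 0.15, adjusted p = 0.0798), where 11.2% were called. It passed the threshold in the fits without the second EtOH-fed sample at 24 h (-0.47, adjusted p = 0.0450) and without the third at 6 h (-0.48, adjusted p = 0.0428).

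In injected animals the diet means were ordered the other way, although this contrast with the untreated animals was not called either. EtOH-fed animals given saline were at 8.08, 8.13 and 8.53 at 0 h, against 7.98, 8.14 and 8.39 in CHO-fed ones. At 24 h they were at 8.38, 8.47 and 8.89, against 7.67, 8.49 and 8.63. The saline order at 0 h rests on the samples low in miR-21, since the remaining EtOH-fed sample, at 8.13, lay below the CHO-fed mean of 8.17. Over untreated, saline and AM21 animals together, EtOH-fed minus CHO-fed was -0.07 at 0 h (SE 0.15, adjusted p = 0.792), where 14.7% of miRNAs were called, and 0.03 at 24 h (SE 0.15, adjusted p = 0.949), where 1.40% were called. The diet difference in injected minus untreated animals, chosen after the values were seen, was 0.60 (SE 0.23, adjusted p = 0.487), which ranked 4 by p among miRNAs of which 0 were called, with 7 at an unadjusted p below 0.05. Without the 2 samples low in miR-21 it was 0.57 (adjusted p = 0.991), and the difference between diets at 0 h was -0.11 (adjusted p = 0.726).

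The mean of miR-221 in AM21 animals lay below that of controls, again without a call. At 0 h the 6 AM21 samples had a lowest, median and highest level of 7.43, 7.96 and 8.24, and the 12 untreated and saline samples had 7.64, 8.24 and 8.53. At 24 h the same values were 7.83, 8.37 and 8.80 with AM21 and 7.67, 8.48 and 9.07 without. The groups overlapped at both times. AM21 minus controls was -0.28 at 0 h (SE 0.16, adjusted p = 0.566), where 4.20% of all miRNAs were called, and -0.15 at 24 h (SE 0.16, adjusted p = 0.712), where 2.80% were called. The change from 0 to 24 h differed by 0.13 between AM21 and controls (SE 0.23, adjusted p = 0.998), in a test that called 0 of 143, with 4 at an unadjusted p below 0.05. Averaged over both times, chosen after the values were seen, AM21 minus controls was -0.22 (SE 0.11, adjusted p = 0.324), where 5.59% were called. miR-21 itself was lower by 7.15 in that comparison (SE 0.24, adjusted p = 1.31e-21). Without the 2 saline samples low in miR-21, AM21 minus controls was -0.25 at 0 h (adjusted p = 0.718) and -0.20 over both times (adjusted p = 0.405), and the difference in change was 0.10 (adjusted p = 0.998).

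Saline injection was compared with no injection over both diets. Saline minus untreated was -0.08 at 0 and 24 h together (SE 0.13, 95% fold interval 0.788 to 1.14, adjusted p = 0.971), where 1.40% of all miRNAs were called. Without the 2 samples low in miR-21 it was -0.10 (adjusted p = 0.996).

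Other miRNAs tied to proliferation rose with miR-221 at 24 h. A list of 14 such miRNAs other than miR-221 was used, of which 10 were measured and miR-18a, miR-92a, miR-222 and miR-155 were not analysed here. This list and those described below were chosen with earlier results of these data known. Several of its members also belong to the same miRNA clusters. The counts therefore describe the list and are no independent test. At 24 h over all arms 8 of the 10 were called higher and 0 lower, with a median of 0.48 against 0.05 over all 143 miRNAs, where 51.7% were called and 29.4% as higher. Members of the miR-17 cluster and its relatives, which E2F and MYC drive and which repress Cdkn1a and Bcl2l11, were among them. miR-17-5p was higher by 0.62 (adjusted p = 1.01e-06), miR-19b by 0.87 (adjusted p = 3.39e-06) and miR-93 by 0.53 (adjusted p = 5.27e-05). miR-25 (0.01) and the hypoxia-induced miR-210 (-0.01) were not called. miR-21 was higher by 1.06 over these arms, AM21 included, but by 0.64 (adjusted p = 0.000791) without the 2 EtOH-fed saline samples low in it. Without them the list count was again 8 higher and 0 lower, with a median of 0.43. Of all 143 miRNAs 48.3% were then called, 39 miRNAs as higher and 30 as lower.

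At 72 h in untreated animals of both diets 5 of the 10 were called higher and 0 lower, with a median of 0.55 against 0.03 over all miRNAs, of which 18.2% were called higher. The called members were miR-17-5p (0.73), miR-19b (0.64), miR-21 (0.86), miR-93 (0.69) and miR-106b (0.46). At 6 h miR-31 was called higher (0.67) and miR-19a lower (-1.69), with a median of -0.08 over the 10, where 9.09% of all miRNAs were called higher and 15.4% lower. miR-221 at these times, 0.48 and 0.15, was not called.

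A list of 23 growth-restraining miRNAs, all measured, was split. At 24 h over all arms 5 were called higher and 4 lower, with a median of -0.06, where 29.4% of all miRNAs were called higher and 22.4% lower. Without the 2 samples low in miR-21 the counts were 4 and 3, where 39 of all 143 miRNAs were called higher and 30 lower. The p53 target miR-34a was higher by 0.74 (adjusted p = 2.55e-06) and miR-16, which represses cyclins, by 0.37 (adjusted p = 0.000568). miR-23b was lower by 0.49 (adjusted p = 3.39e-06) and miR-26a by 0.42 (adjusted p = 0.00378). At 72 h 4 were called higher and 4 lower, with a median of -0.02, where 18.2% and 17.5% of all miRNAs were.

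miR-221 also belongs to a list of 16 miRNAs that rise when stellate cells activate, which the study took from outside these samples, and of which 13 others were measured here. Apart from miR-221, 6 were called higher and 3 lower at 24 h over all arms, with a median of 0.06, where 29.4% of all miRNAs were called higher and 22.4% lower. Without the 2 samples low in miR-21 the counts were 6 and 2, and let-7c was not called. Of all 143 miRNAs, 39 were then called higher and 30 lower. Those higher were miR-21, miR-31, miR-132 (0.57), miR-143, miR-152 (0.28) and miR-199a-5p. Those lower were let-7c (-0.20), miR-22 (-0.33) and miR-145. At 72 h 4 were called higher and 2 lower, with a median of -0.02. That comparison called 35.7% of all miRNAs, 18.2% as higher and 17.5% as lower.

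**Figure D4:**
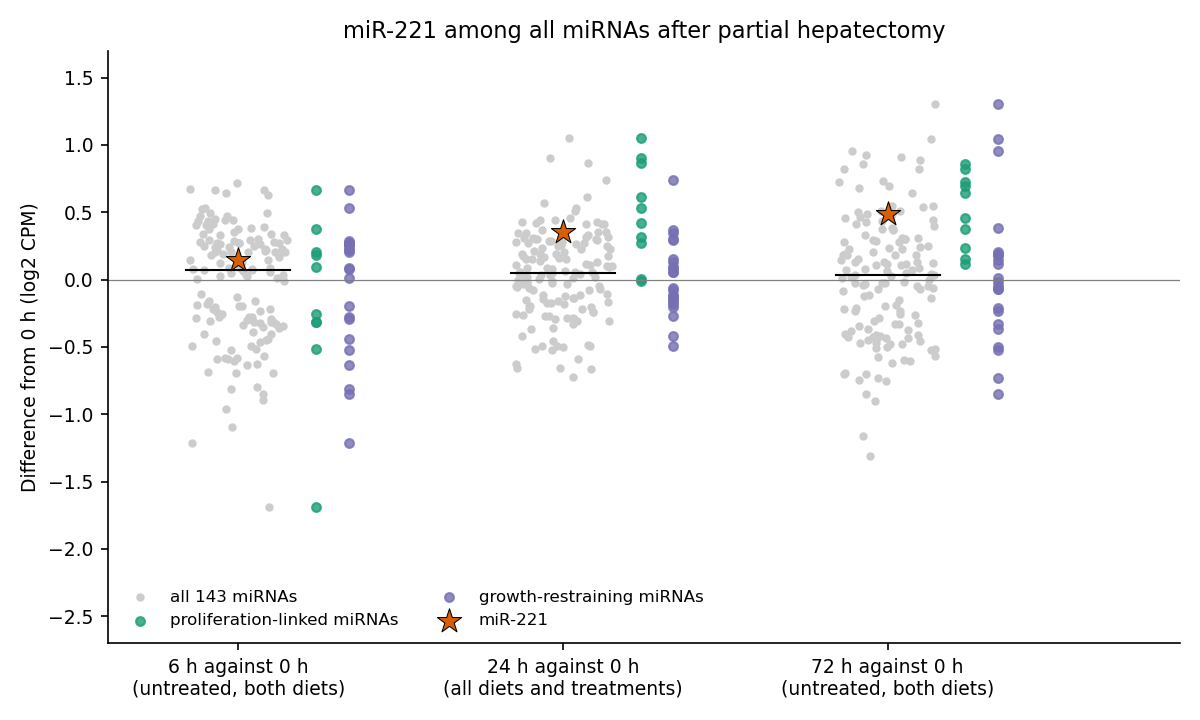
Difference from 0 h (y axis, log2 CPM, limma) of all 143 miRNAs at 6, 24 and 72 h, with the proliferation-linked and growth-restraining lists drawn beside them in colour, black lines at the medians of all miRNAs and miR-221 as a star. miR-221 sits at 0.15, 0.35 and 0.48, above these medians of 0.07, 0.05 and 0.03, and only its 24 h value was called. Values at 6 and 72 h are of untreated animals, and those at 24 h of all diets and treatments. In untreated animals alone miR-221 at 24 h was at 0.41 and not called.

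The miRNAs whose group means followed miR-221 most closely were miR-146b, miR-106b, miR-199a-5p, miR-17-5p and miR-28. Likeness was Pearson correlation over the 16 group means, a description in which all points share libraries, scaling and control groups. It was 0.80 for miR-146b, 0.72 for miR-106b and 0.67 for miR-199a-5p. It was 0.67 for miR-17-5p and 0.66 for miR-28, and Spearman correlations of the 5 were 0.62 to 0.78. Over the 142 other miRNAs the correlation ran from -0.73 to 0.80, with a median of 0.08. Without the 2 samples low in miR-21, miR-106b (0.66) ranked 6 and the other 4 were still the closest 4. The mature strands are printed to show that none has the seed of miR-221. Capitals mark the seed, and a name without a suffix was read as the 5p strand.
miR-146b-5p: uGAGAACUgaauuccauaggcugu
miR-106b-5p: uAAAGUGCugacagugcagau
miR-199a-5p: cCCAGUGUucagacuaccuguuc
miR-17-5p: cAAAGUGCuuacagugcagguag
miR-28-5p: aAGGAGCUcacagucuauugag
miR-106b and miR-17-5p share the seed AAAGUGC with each other.

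These miRNAs were chosen on group means that hold the step from 0 to 24 h, so their values at 24 h over all arms describe the choice and are no test of it. miR-146b, which is induced by NF-kB and restrains that pathway, had a difference of 0.29 and group means from 7.41 to 8.34 log2 CPM. The difference was 0.31 for miR-106b and 0.15 for miR-28. The least alike were miR-23b (-0.73), miR-22 (-0.73) and miR-27b (-0.69), with differences at 24 h of -0.49, -0.33 and -0.50.

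The likeness over group means was not seen in the spread of animals within groups. Counting error, 33.8% of the miR-221 variance within groups, weakens correlations there. miR-146b (14 to 66 counts) and miR-106b (18 to 114) are low-count too, so small values do not show that levels were unrelated. After the group means were removed, the correlation with miR-221 over the 48 samples was 0.02 for miR-146b, -0.05 for miR-106b and 0.08 for miR-17-5p. The highest was 0.36 for the myeloid miR-223, with miR-139-5p at 0.28 and miR-27a at 0.25. Without the 2 samples low in miR-21 the highest were miR-223 (0.38), miR-340-3p (0.29) and miR-139-5p (0.28), and miR-27a was no longer among them. With all 48 samples the range over the 142 miRNAs was -0.36 to 0.36. The same measure was -0.17 between miR-221 and the log10 total count.

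**Figure D5:**
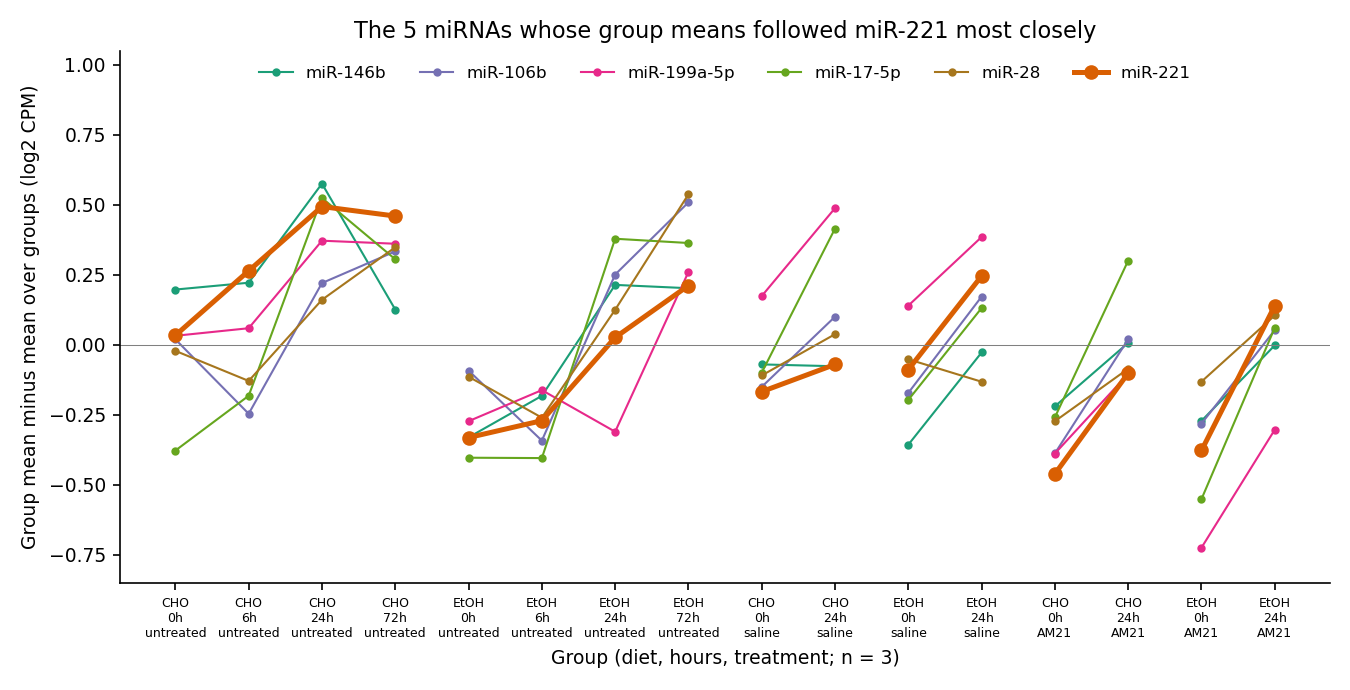
Group mean minus the mean over the 16 groups (y axis, log2 CPM) for miR-221, in the thick line, and its 5 closest miRNAs, by group (x axis, n = 3 each); lines join the times of 1 diet and treatment. miR-221 and the others are higher at 24 h than at 0 h in most of the 6 arms.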

How the data were processed

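Total RNA from frozen liver was assayed with NanoString nCounter probes, which count single molecules by barcode without amplification, for 420 rat miRNAs. The authors scaled the counts by TMM, transformed them with voom and deposited log2 CPM values for 143 miRNAs; the filter is not given in the sources used here. Whole counts were recovered from these values (100% within 0.001 of a whole number, with the voom offset of 0.5).

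Differences were fitted with limma 3.58.1 in R 4.3.3 on the deposited log2 values, with 1 mean per group, in the 24 untreated or in the 36 samples at 0 and 24 h, two-sided, with Benjamini-Hochberg adjustment over 143 miRNAs and calls below 0.05. The procedure was tested on simulated data. Samples of a group were taken as separate rats. The labels do not state this, but the study gives 3 animals or biological replicates per group. The p-values measure the spread between these samples. Permutation tests were exact. Alternatives were other scalings, voom weights, a variance trend, a filter of 50 counts in 3 samples, total count as a covariate, a replicate block and each sample left out. Named miRNAs were miR-221, the 5 most and 3 least alike, the 3 most alike within groups (with and without the samples low in miR-21) and members of the lists. The member, the lists and the added comparisons were chosen with earlier results of these data known. Same-numbered samples deviated together (correlations over 0.1 in all 3 pairs) in CHO-fed 24 h against 0 h, 0.12 to 0.30, and in the diets at 0 h, 0.52 to 0.79, and the block changed no call.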

Additional observations from a re-analysis of the deposited data

How the results depend on the processing

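Over the 32 tested comparisons, 747 alternative values were computed, of which 733 kept the direction and the side of the threshold, 11 changed sign and 3 passed the threshold where the main value did not. The rise from 0 to 24 h over all diets and treatments was called under each of its 45 alternatives, and of the others only the 72 h difference over both diets and the diet difference over all times were called under any. None of the values that changed sign was called.

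EtOH-fed 6 h against 0 h was 0.06, and from -0.230 to 0.364 with 1 sample left out; it was negative without the second untreated sample at 0 h (-0.121) or the third at 6 h (-0.230). EtOH-fed against CHO-fed at 72 h was -0.25, and from -0.467 to 0.0746 with 1 sample left out, positive without the second EtOH-fed sample at 72 h. The diet difference at 24 h over all treatments was 0.03, with -0.00973 under scaling to the 100 highest probes, -0.000728 under scaling to all counts but miR-122, and -0.0695 to 0.0914 with 1 sample left out; it was negative without 6 of the samples (-0.0222, -0.0695, -0.0554, -0.0452, -0.0383 and -0.0251). The 72 h difference over both diets ran from 0.38 to 0.65 with 1 sample left out and was called at 0.65. The diet difference over all times ran from -0.48 to -0.32 and was called at -0.47 and -0.48. Of the 5 most alike miRNAs, 3 to 5 stayed among the first 5 with 1 sample left out. The cause was not tested.

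With the replicate block, CHO-fed 24 h against 0 h was 0.46 (limma adjusted p = 0.253), the untreated diet difference at 0 h was -0.37 (adjusted p = 0.433) and the rise over all arms was 0.35 (adjusted p = 0.00612), and no call changed. Scaling to the 100 highest probes or to all counts but miR-122 moved the median difference of all miRNAs by up to 0.15 and 0.14 on the log2 scale. At 17 to 93 counts, counting error gave 33.8% of the variance within groups.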
